A study of Homo sapiens with 12 samples.

Results

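Antiviral interferon-stimulated genes are the effector genes that cells switch on when they sense interferon or viral RNA. The list described here holds 39 such genes, of the 60669 Ensembl gene identifiers counted in each library. Members were found by gene symbol, and all 39 had an identifier. They were measured by RNA sequencing of total RNA from PANC-1, an established cell line of human pancreatic ductal adenocarcinoma, in 12 libraries of 6 conditions with 2 biological replicates each. All cells had been reverse transfected with an siRNA (72 h, per the labels), and TNF was given at 100 ng/mL, so no condition is free of transfection. SIK3 is a salt-inducible kinase of the AMPK-related family, and TNF is a cytokine that activates NF-κB.

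The conditions are those of the words in the submitters' file names, and the sample titles go against them for 8 of the 12 libraries. In the order used here the pairs are SIK3 siRNA without TNF (named CLM, read as no TNF), SIK3 siRNA with TNF for 30 min, SIK3 siRNA with TNF for 4 h, and the same times with Scr1, read as the control siRNA. The titles call the SIK3 pair without TNF an siAS1 pair at TNF 30 min. They call the SIK3 pair at 30 min a siCtrl1 pair at TNF 4 h. They call the Scr1 pair at 30 min an unstimulated siAS1 pair, and the Scr1 pair at 4 h a siCtrl1 pair at TNF 30 min. Titles and file names go together for the SIK3 pair at 4 h and the Scr1 pair without TNF. Libraries are called SIK3-named and Scr1-named below, and results under the titles are given with the dependence on processing.

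Interferons bind receptors on the cell surface, the kinases JAK1 and TYK2 relay the signal, and a transcription factor complex that includes STAT2 and IRF9 binds interferon-stimulated response elements (ISRE) in promoters. The induced proteins cut or bind viral RNA, block entry or assembly, and modify other proteins with ubiquitin-like tags. Many of these genes can also be switched on directly by IRF1 or IRF3, and TNF can induce IRF1 through NF-κB.

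SIK3 itself was compared first. It had 16.3 and 22.4 CPM (reads of the gene per library size, TMM-scaled) in the 2 SIK3-named libraries without TNF, 17.3 and 24.0 CPM at 30 min, and 18.3 and 22.8 CPM at 4 h. It had 34.3 and 60.4 CPM in the Scr1-named libraries without TNF, 42.5 and 68.7 CPM at 30 min, and 34.4 and 65.2 CPM at 4 h. The 6 SIK3-named libraries all lay below the 6 Scr1-named libraries. The mean difference was -1.25 on the log2(CPM + 1) scale (exact permutation test over 924 splits, two-sided, p = 0.00216, the smallest these splits can give). These splits ignore replicate number. With splits kept within replicate number, 2 of 400 were as extreme (exact permutation test, p = 0.005). Grouped by the titles, the difference was -0.34 (p = 0.433, exact permutation test).

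The libraries held 13535825 to 22699756 counts in genes, so that 3 counts, the level a count of 0 still allows, stand for 0.132 to 0.222 CPM. This limit covers counting error only. Multimapping reads made up 4.94 to 17.6% of reads in the 6 libraries of replicate 1 and 10.2 to 45.3% in those of replicate 2. Reads in no annotated gene made up 16.5 and 17.1% in the SIK3-named libraries at 4 h, against 8.35 to 10.5% in the other 10 libraries. The keratins KRT8, KRT18 and KRT19, epithelial markers of PANC-1, summed to 5173 to 6383 CPM in SIK3-named and 5512 to 6822 CPM in Scr1-named libraries. VIM had 1353 to 2320 CPM in SIK3-named and 3262 to 3998 CPM in Scr1-named libraries, and CDH1 had 28.1 to 37.6 CPM in SIK3-named and 72.5 to 86.9 CPM in Scr1-named libraries. Their part in the results below was not tested. In bulk RNA, fewer cells that express a gene and less RNA per cell cannot be told apart.

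Of the 39 members, 38 passed the filter on low counts. The exception was IFI44L, with 24 counts over all libraries and at most 0.237 CPM in any of them. Per kilobase of exons, IFI6 was the highest member in SIK3-named libraries without TNF (167 CPM per kb), followed by IFITM3 (69.5), ISG15 (49.7), TRIM21 (44.4) and PARP14 (43.6), all in CPM per kb. In Scr1-named libraries without TNF the highest were IFITM3 (75.6), TRIM21 (46.5), IFIT3 (41.5), IFIT2 (40.1) and PARP14 (35.4 CPM per kb), while IFI6 stood 9th at 15.8 CPM per kb. MX1 stood 17th at 11.3 CPM per kb in the SIK3-named and 28th at 1.37 CPM per kb in the Scr1-named libraries.

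Promoters were read for 32 of the 39 members from RefSeq (build GRCh38.p14, 250 bases before to 50 after the start, the entry nearest the GENCODE 5′ end where a gene had several). They were searched on both strands for an ISRE-like core, GAAANNGAA, and a κB-like core, GGNNNTTCC. The ISRE-like core was found in 24 of these 32 promoters, and the κB-like core in 7. Over all entries of these genes, the ISRE-like core lay in 31 of 43, 72.1%, against 8.11% of all 35116 entries of the table. The κB-like core lay in 8 of the 43 entries, 18.6%, against 20.1% of all entries. No match of one core overlapped a match of the other in these 32. IFIH1 held the most ISRE-like matches, 4. OAS1, SAMD9L, XAF1, SP110, IFI35, HERC6, PARP9 and CMPK2 held none in this window. A match describes letters and is not evidence of binding.

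The promoters below belong to the 3 members with the largest rise and the 2 with the largest fall under SIK3 siRNA, averaged over TNF times, that are in the table. They are shown 5′ to 3′ on the gene's strand, with ISRE-like matches in capitals. IFI6 lies at chr1:27672143-27672442 (minus strand), MX1 at chr21:41420308-41420607 (plus), IFI27 at chr14:94110486-94110785 (plus), CMPK2 at chr2:6866586-6866885 (minus) and HERC5 at chr4:88456869-88457168 (plus). CMPK2 has 3 entries in the table, of which 1 holds a match. The promoters of both directions hold matches, with 3 in IFI6, 2 in MX1 (overlapping), 2 in IFI27, 0 in CMPK2 and 3 in HERC5, of which 2 overlap.
IFI6: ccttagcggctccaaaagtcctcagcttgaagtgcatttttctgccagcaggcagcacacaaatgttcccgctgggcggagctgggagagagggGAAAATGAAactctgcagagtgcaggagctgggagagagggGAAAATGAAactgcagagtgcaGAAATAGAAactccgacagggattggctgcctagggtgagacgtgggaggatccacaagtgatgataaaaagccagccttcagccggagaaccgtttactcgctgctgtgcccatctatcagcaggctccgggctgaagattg
MX1: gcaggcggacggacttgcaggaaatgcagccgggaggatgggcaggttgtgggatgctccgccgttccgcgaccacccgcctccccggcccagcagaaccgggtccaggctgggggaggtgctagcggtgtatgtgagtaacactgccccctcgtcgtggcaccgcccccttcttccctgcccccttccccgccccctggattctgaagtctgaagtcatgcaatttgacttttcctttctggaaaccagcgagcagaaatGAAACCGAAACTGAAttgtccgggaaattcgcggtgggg
IFI27: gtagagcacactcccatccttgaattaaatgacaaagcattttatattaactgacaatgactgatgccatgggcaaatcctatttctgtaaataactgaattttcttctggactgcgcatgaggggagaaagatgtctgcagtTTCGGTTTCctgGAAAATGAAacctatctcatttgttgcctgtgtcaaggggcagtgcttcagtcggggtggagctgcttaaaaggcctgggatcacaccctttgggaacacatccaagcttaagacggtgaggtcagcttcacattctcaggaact
CMPK2: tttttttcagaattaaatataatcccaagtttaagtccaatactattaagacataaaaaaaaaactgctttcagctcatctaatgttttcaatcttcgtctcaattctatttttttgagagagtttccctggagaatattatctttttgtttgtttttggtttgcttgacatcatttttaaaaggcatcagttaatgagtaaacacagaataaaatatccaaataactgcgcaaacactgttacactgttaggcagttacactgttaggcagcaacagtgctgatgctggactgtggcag
HERC5: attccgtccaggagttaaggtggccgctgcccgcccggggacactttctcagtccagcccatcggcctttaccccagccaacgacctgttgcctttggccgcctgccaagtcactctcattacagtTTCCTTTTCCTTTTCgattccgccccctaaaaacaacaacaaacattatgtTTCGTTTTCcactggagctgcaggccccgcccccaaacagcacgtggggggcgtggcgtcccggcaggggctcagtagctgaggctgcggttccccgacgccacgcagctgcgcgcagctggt

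**Figure D1:**
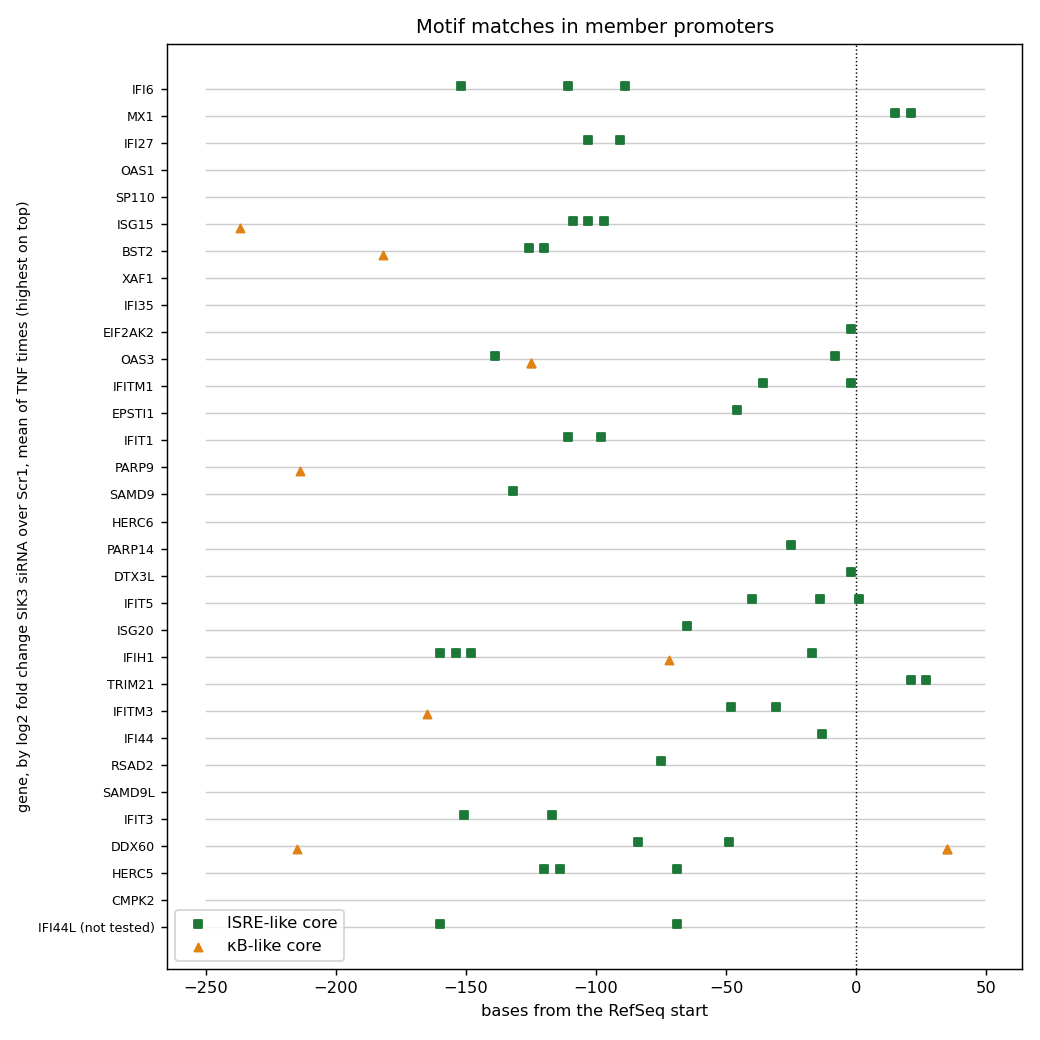
Positions of the ISRE-like core (squares) and the κB-like core (triangles) in 32 member promoters, as the centre of each match in bases from the RefSeq start. Genes run from the highest (IFI6) to the lowest (CMPK2) log2 fold change, SIK3 siRNA over Scr1, and IFI44L, which was not tested, is placed below CMPK2. ISRE-like matches lie in 24 of the 32 promoters, toward both ends of that order, with 3 in IFI6, 3 in HERC5 and 0 in CMPK2.

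Without TNF, members were called in both directions. Of the 38 members tested, 19 rose and 6 fell in the SIK3-named libraries against the Scr1-named ones, and 13 did not pass the test (edgeR quasi-likelihood test, Benjamini-Hochberg adjusted p under 0.05). Over all 16695 genes tested, 18.9% were called higher and 19.8% lower, against 50% and 15.8% of members. Only the higher calls stood above the share of all genes. With replicate number as a block in the fit, 21 rose and 8 fell, 55.3% and 21.1%, against 29.2% and 29.1% of all genes. The added calls were ISG20 (0.32, edgeR adjusted p = 0.0267) and IFIT1 (0.74, adjusted p = 5.67e-09), which were higher, and RSAD2 (-0.47, adjusted p = 0.0457) and IFITM2 (-0.90, adjusted p = 3.79e-06), which were lower. The members' median log2 fold change without the block was 0.47, against 0.01 over all genes. Within replicate 1 and within replicate 2 alone the members' median log2 ratio was 0.52 and 0.38, a split chosen after seeing the data.

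The largest change was in IFI6, a small membrane protein with antiviral and anti-apoptotic activity. It had 141 and 147 CPM in SIK3-named libraries without TNF, against 15.0 and 12.3 CPM in Scr1-named libraries. The level was 10.5-fold higher, with no overlap (log2 fold change 3.40, SE 0.16, edgeR adjusted p = 7.90e-07). Non-overlap of 2 libraries with 2, here and below, describes genes already called and is no separate support. MX1, a dynamin-like GTPase that traps viral nucleocapsids, had 95.1 and 99.9 CPM in SIK3-named libraries, against 13.1 and 10.5 CPM in Scr1-named libraries. It too was several-fold higher without overlap (log2 fold change 3.04, SE 0.17, adjusted p = 1.50e-06). OAS1, which makes the 2-5A signal that activates RNase L, had 13.9 and 16.1 CPM in SIK3-named libraries, against 3.70 and 4.59 CPM in Scr1-named libraries (log2 fold change 1.86, SE 0.19, adjusted p = 5.91e-05).

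OASL went the other way. This OAS relative binds double-stranded RNA and aids RIG-I signalling but lacks the synthetase activity. It had 7.02 and 6.05 CPM in SIK3-named libraries, against 28.4 and 19.5 CPM in Scr1-named libraries, a 3.66-fold lower level without overlap (log2 fold change -1.87, SE 0.20, edgeR adjusted p = 6.72e-05). Within the same family OAS2 and OAS3 rose with OAS1 (log2 fold changes of 1.11 and 1.20).

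By role, 5 of the 8 members that sense or act on viral RNA rose without TNF (OAS1, OAS2, OAS3, EIF2AK2, IFIH1) and 2 fell (OASL, DDX60). EIF2AK2 encodes the kinase PKR, which halts translation, and had 188 and 215 CPM in SIK3-named libraries, against 103 and 114 CPM in Scr1-named libraries (log2 fold change 0.89). DDX60, a helicase that promotes RIG-I-like receptor signalling, had 41.7 and 40.4 CPM in SIK3-named libraries, against 79.2 and 66.2 CPM in Scr1-named libraries (log2 fold change -0.82). Of the 4 IFIT genes, whose proteins bind viral RNA ends or each other, IFIT3 fell (log2 fold change -0.65) and the other 3 did not pass, though IFIT1 did with the replicate block.

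In the ISG15 system, the ubiquitin-like modifier and its ligase changed in opposite directions. ISG15, the modifier, had 51.4 and 42.2 CPM in SIK3-named libraries, against 15.2 and 10.5 CPM in Scr1-named libraries (log2 fold change 1.86). HERC5, the main ligase that attaches it in human cells, had 11.8 and 11.6 CPM in SIK3-named libraries, against 22.7 and 22.4 CPM in Scr1-named libraries (log2 fold change -0.95). Neither gene overlapped between the groups. USP18, which removes ISG15 and restrains the interferon receptor, had 10.7 and 9.86 CPM in SIK3-named libraries, against 12.4 and 8.13 CPM in Scr1-named libraries, and did not pass, nor did HERC6.

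Of the 4 genes of the GTPase and radical SAM group, MX1 and MX2 rose and CMPK2 fell without TNF. MX2, which acts at nuclear import of retroviruses, had 85.5 and 87.5 CPM in SIK3-named libraries, against 53.0 and 52.8 CPM in Scr1-named libraries (log2 fold change 0.71). CMPK2, a mitochondrial nucleotide kinase, lies beside RSAD2 (viperin) on the other strand and overlaps it. CMPK2 rested on few reads, 16 and 5 counts in SIK3-named and 48 and 19 counts in Scr1-named libraries (log2 fold change -1.88). RSAD2 had 3.14 and 2.65 CPM in SIK3-named libraries, against 4.23 and 3.82 CPM in Scr1-named libraries, and passed only with the replicate block.

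Of the 6 membrane proteins, IFI6, IFI27, BST2 and IFITM1 rose, and IFITM2 fell only with the replicate block. IFI27 had 57 and 22 counts in the SIK3-named libraries without TNF, against 3 and 3 counts in the Scr1-named libraries. BST2, or tetherin, which holds budding virions at the surface, had 22.3 and 17.5 CPM in SIK3-named libraries, against 7.45 and 5.58 CPM in Scr1-named libraries (log2 fold change 1.61). IFITM1, IFITM2 and IFITM3 block fusion of incoming viruses. IFITM2 and IFITM3 did not pass without the block, and their replicates stood apart. IFITM3 was higher in replicate 2 than in replicate 1 in all 6 conditions, by 0.83 to 1.24 on the log2 scale, and IFITM2 by 0.92 to 1.48. The multimapping share given above was also higher in replicate 2, and its part was not tested. IFITM1 and IFITM2 overlap on the same strand, so reads of the pair may not be assigned apart.

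Of the 5 PARP and E3 ligase genes, PARP9 and PARP14, ADP-ribosyltransferase family members, rose without TNF (log2 fold changes 0.74 and 0.30), and DTX3L, TRIM21 and TRIM22 did not pass. PARP9 and DTX3L overlap on opposite strands, so their reads may not be assigned apart. Of the 8 members left, IFI35, XAF1, SAMD9, EPSTI1 and SP110 rose, SAMD9L fell, IFI44 did not pass, and IFI44L was not tested. XAF1, a pro-apoptotic partner of XIAP, had 23.2 and 33.1 CPM in SIK3-named libraries, against 8.51 and 10.7 CPM in Scr1-named libraries (log2 fold change 1.55).

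**Figure D2:**
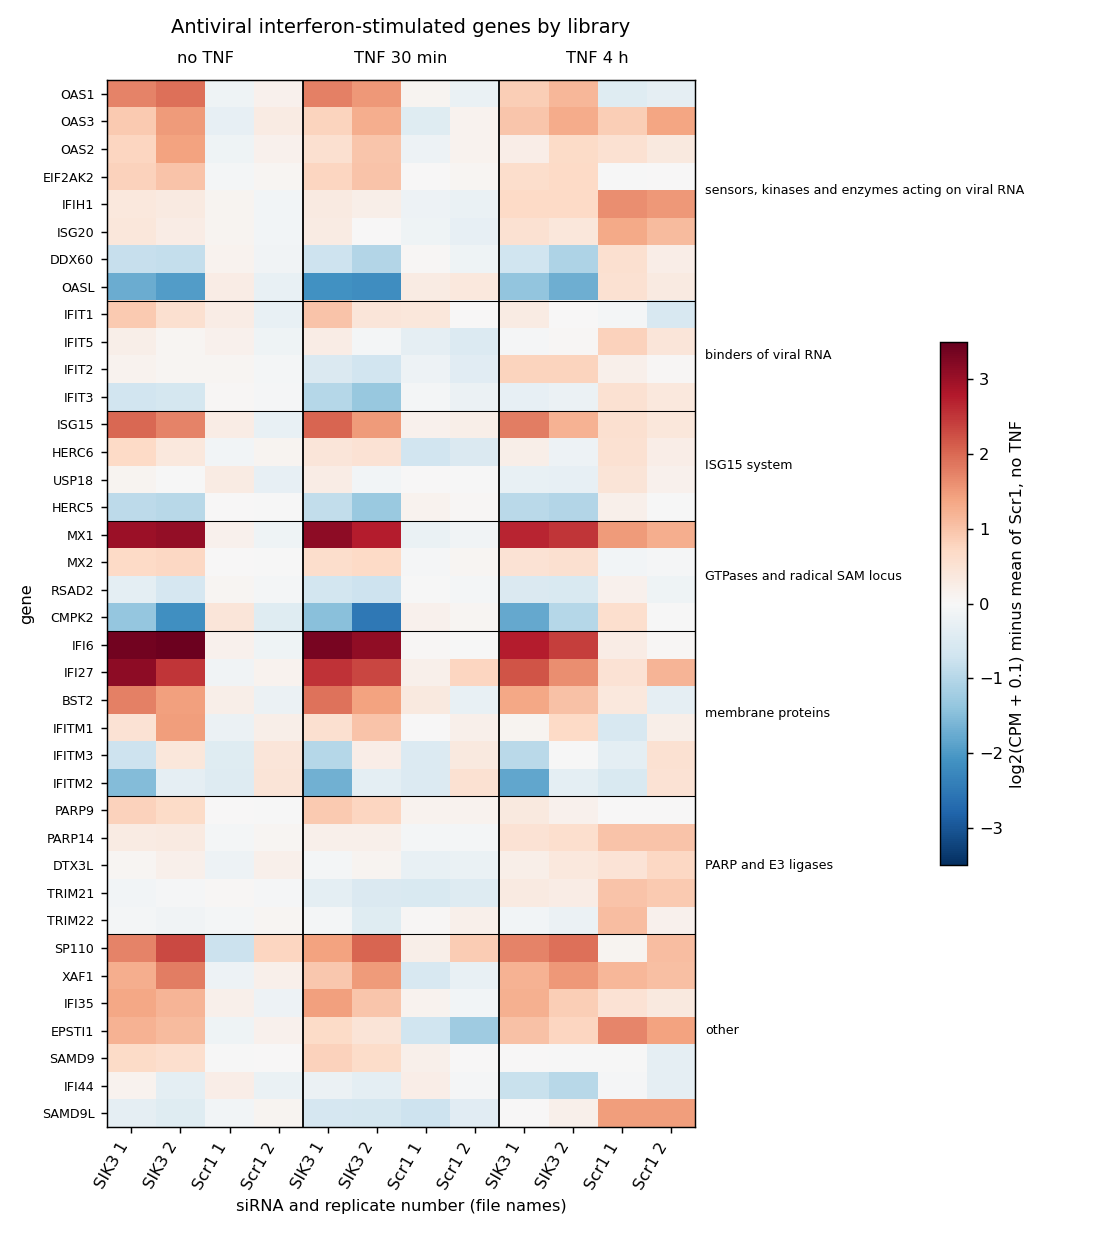
Level of the 38 members tested in each of the 12 libraries, as log2(CPM + 0.1) minus the mean of the Scr1-named libraries without TNF. Columns are libraries, SIK3-named left of Scr1-named within each TNF time, and genes are grouped by role; IFI6 and MX1 are high in all 6 SIK3-named libraries, and IFIH1, SAMD9L and TRIM21 are highest in the Scr1-named libraries at 4 h.

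At TNF 30 min the siRNA comparison gave nearly the same counts. Of 38 members, 19 rose and 7 fell in SIK3-named libraries, with 18.2% and 19.6% of all genes called higher and lower. The share of members called lower, 18.4%, lay near that of all genes. The replicate block gave 24 higher and 9 lower (28.5% and 30.0% of all genes). The median was 0.51 for members and -0.01 for all genes. IFI6 had 137 and 118 CPM in SIK3-named libraries, against 14.0 and 13.5 CPM in Scr1-named libraries (log2 fold change 3.21, SE 0.16, edgeR adjusted p = 1.16e-06). MX1 had 104 and 79.5 CPM in SIK3-named libraries, against 10.0 and 10.8 CPM in Scr1-named libraries (log2 fold change 3.14, SE 0.17, adjusted p = 1.41e-06). OASL had 5.35 and 5.15 CPM in SIK3-named libraries, against 28.7 and 30.3 CPM in Scr1-named libraries (log2 fold change -2.49, SE 0.20, adjusted p = 1.45e-05). OAS1 had 14.2 and 12.1 CPM in SIK3-named libraries, against 4.44 and 3.48 CPM in Scr1-named libraries (log2 fold change 1.72, SE 0.19, adjusted p = 9.21e-05). None of these 4 genes overlapped between the siRNAs.

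At TNF 4 h the balance was turned, with 9 members higher and 15 lower in SIK3-named libraries. Over all genes 19.6% were called higher and 19.9% lower, against 23.7% and 39.5% of members. The fit with the block gave 14 higher and 19 lower (29.7% and 29.1% of all genes). The median was -0.36 for members, against 0.03 for all genes. With library totals in place of TMM, 10 were higher and 11 lower, and the shares of all genes under that scaling are not given here. Without SIK3-named replicate 1 at 4 h fewer members were called, in a fit of fewer samples. IFI6 was still the most raised, with 92.7 and 72.8 CPM in SIK3-named libraries, against 16.3 and 13.9 CPM in Scr1-named libraries (log2 fold change 2.45, SE 0.16, edgeR adjusted p = 5.72e-06). OASL had 8.96 and 7.11 CPM in SIK3-named libraries, against 33.9 and 29.3 CPM in Scr1-named libraries (log2 fold change -1.98, SE 0.20, adjusted p = 5.73e-05).

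IFIH1 and SAMD9L were low in the SIK3-named libraries at 4 h. IFIH1, or MDA5, senses long double-stranded RNA. It had 120 and 119 CPM in SIK3-named libraries, against 228 and 210 CPM in Scr1-named libraries (log2 fold change -0.87, SE 0.09, edgeR adjusted p = 7.89e-05). SAMD9L, an antiviral and growth-restraining protein, had 25.1 and 27.9 CPM in SIK3-named libraries, against 68.1 and 68.4 CPM in Scr1-named libraries (log2 fold change -1.36, SE 0.13, adjusted p = 3.88e-05). Neither gene overlapped between the siRNAs at this time. The SIK3-named libraries at 4 h are those with the high share of reads in no annotated gene, whose part was not tested.

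Across the 3 times, 8 members were called higher at each (IFI6, MX1, MX2, OAS1, EIF2AK2, ISG15, BST2, IFI35) and 5 lower at each (OASL, DDX60, HERC5, IFIT3, CMPK2). Another 5 were called in opposite directions at different times. Of these, IFIH1, PARP14 and EPSTI1 were higher without TNF and at 30 min and lower at 4 h, IFIT5 was higher at 30 min and lower at 4 h, and IFIT2 was lower at 30 min and higher at 4 h. DTX3L, IFIT1, IFITM2, IFITM3 and USP18 were called at no time without the replicate block. With it each of them was called at some time: IFIT1 was higher and IFITM2 lower at each time, IFITM3 was lower at 30 min and 4 h, DTX3L was higher at 30 min and lower at 4 h, and USP18 was lower at 4 h. IFI27, IFITM1, PARP9 and SP110 were then also called higher at each time, and RSAD2 lower. ISG20 was then higher without TNF and at 30 min and lower at 4 h. The share of all genes with each of these patterns across times was not counted, with the block or without. These counts therefore have no background to be set against.

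Averaged over the 3 times, 20 members rose and 9 fell, 52.6% and 23.7%, against 30.2% and 29.0% of all genes. With the replicate block 20 rose and 12 fell, 52.6% and 31.6%, against 36.9% and 35.7%. The shares called lower did not exceed those of all genes. Without the block the members' median log2 fold change was 0.30, against 0.02 for all genes. The 4 with the smallest p were IFI6 (3.02, SE 0.09), MX1 (2.46, SE 0.09), OASL (-2.11, SE 0.11) and OAS1 (1.66, SE 0.11), each a log2 fold change. Their edgeR adjusted p-values were 9.29e-09, 3.28e-08, 2.62e-07 and 1.08e-06 in that order. Over all 6 libraries of each siRNA, 11 members lay wholly higher and 7 wholly lower in the SIK3-named libraries, while 16.8% and 17.6% of all genes did so. The 7 wholly lower, of 38 tested, are a share near that of all genes. The 11 were ISG15, IFI6, EIF2AK2, SP110, PARP9, OAS1, IFI27, IFI35, BST2, MX2 and MX1, and the 7 were CMPK2, RSAD2, HERC5, DDX60, IFIT3, TRIM22 and OASL.

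**Figure D3:**
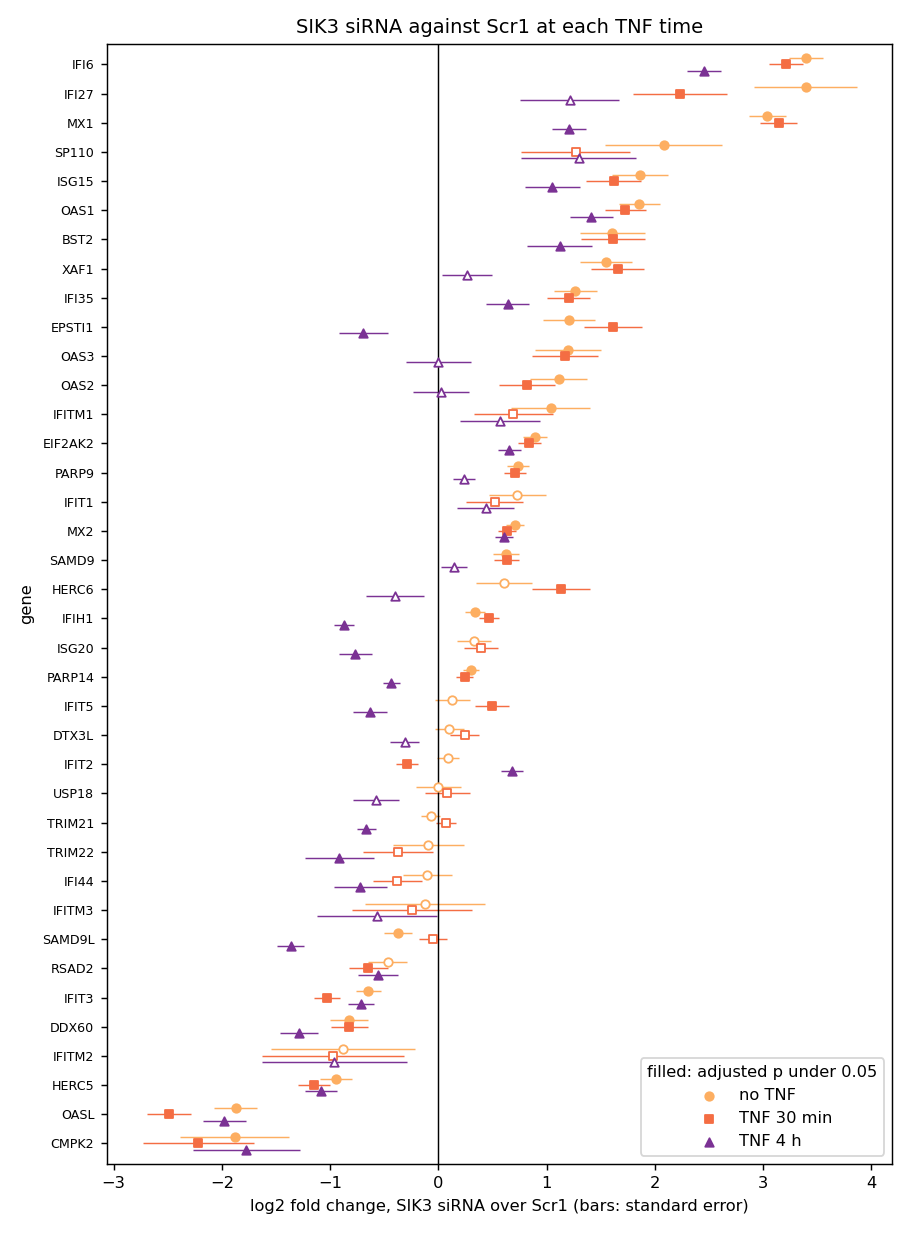
Log2 fold change, SIK3 siRNA over Scr1, of 38 members without TNF and at TNF 30 min and 4 h, with standard errors from the fit (filled symbols have an adjusted p under 0.05). IFI6 stays above 2 and OASL below -1 at all 3 times, while IFIH1, PARP14 and EPSTI1 lie right of 0 without TNF and left of 0 at 4 h.

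TNF for 30 min changed no member past the threshold under either siRNA. In SIK3-named libraries 0 of 38 members were called (edgeR), 4 had an unadjusted p under 0.05, and DESeq2 called 1. In Scr1-named libraries 0 were called (edgeR), 6 had an unadjusted p under 0.05, and DESeq2 called 1. Of all genes, edgeR called 0.138% higher and 0.0120% lower in SIK3-named libraries, and 0.270% and 0.0240% in Scr1-named libraries. The share of all genes that DESeq2 called is not given here. With replicate number as a block, 3 members were called lower and 0 higher in SIK3-named libraries (1.67% of all genes higher, 1.70% lower), and 4 lower and 0 higher in Scr1-named libraries (1.81% higher, 0.964% lower). The members' median log2 fold change was -0.16 in SIK3-named and -0.03 in Scr1-named libraries.

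TNF for 4 h gave calls in both directions among members in the SIK3-named libraries. There 1 member rose and 4 fell against no TNF, 2.63% and 10.5% of the 38 tested. Over all genes, 3.65% were called higher and 0.767% lower. With the replicate block 6 rose and 15 fell, 15.8% and 39.5%, against 12.5% and 9.36% of all genes. The share of members called lower stood above that of all genes in both fits, and the share called higher lay near it. The members' median log2 fold change was -0.19, against 0.00 for all genes. IFIT2 rose, with 283 and 284 CPM at 4 h, against 178 and 172 CPM without TNF (log2 fold change 0.70, SE 0.10, edgeR adjusted p = 0.00529). IFIT2 overlaps LIPA on the other strand, and LIPA had 161 and 154 CPM at 4 h, against 235 and 190 CPM without TNF, lower where IFIT2 was higher. The strand setting of the counting is not given in the sources used here.

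The 4 members that fell in SIK3-named libraries at 4 h were all higher there than in Scr1-named libraries without TNF, a comparison that shares its libraries without TNF with this one. IFI6 fell to 92.7 and 72.8 CPM at 4 h, against 141 and 147 CPM without TNF (log2 fold change -0.80, SE 0.14, edgeR adjusted p = 0.0133). SAMD9, a relative of SAMD9L, had 51.4 and 50.2 CPM at 4 h, against 80.8 and 76.5 CPM without TNF (log2 fold change -0.63, SE 0.12, adjusted p = 0.0164). PARP9 had 61.4 and 53.3 CPM at 4 h, against 83.9 and 77.1 CPM without TNF (log2 fold change -0.49, SE 0.10, adjusted p = 0.0267). OAS1 fell as well (log2 fold change -0.82). The called members did not overlap between the times, which adds no support to calls made from the same libraries. These calls depended on single libraries: with 1 library left out of this comparison, 0 to 2 members were called. IFIT2 lost its call without SIK3-named replicate 2 without TNF (adjusted p = 0.0580), SAMD9 and PARP9 without any 1 of the 4 libraries, and IFI6 without any 1 of 3 of them (both libraries without TNF, and replicate 2 at 4 h).

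In Scr1-named libraries TNF for 4 h raised members. There 11 of 38 rose and 0 fell against no TNF, with 5.53% of all genes called higher and 3.46% lower, and 7 to 9 rose with 1 library left out (7 without Scr1-named replicate 1 without TNF). With the replicate block 17 rose and 1 fell (11.3% and 12.2% of all genes). The members' median log2 fold change was 0.41, against -0.03 for all genes. IFIH1 had 228 and 210 CPM at 4 h, against 78.1 and 68.6 CPM without TNF (log2 fold change 1.58, SE 0.09, edgeR adjusted p = 9.66e-06). PARP14 had 736 and 741 CPM at 4 h, against 352 and 391 CPM without TNF (log2 fold change 0.99, SE 0.08, adjusted p = 4.48e-05). SAMD9L had 68.1 and 68.4 CPM at 4 h, against 23.1 and 26.4 CPM without TNF (log2 fold change 1.47, SE 0.13, adjusted p = 7.26e-05).

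TRIM21, a cytosolic antibody receptor and E3 ligase, completed the 4 with the smallest p. It had 179 and 170 CPM at 4 h, against 92.3 and 87.3 CPM without TNF (log2 fold change 0.96, SE 0.09, edgeR adjusted p = 0.000113). The groups did not overlap for any of these 4. MX1, ISG20, EPSTI1, XAF1, DTX3L, IFIT5 and IFIT3 also rose, by 0.46 to 1.63 on the log2 scale. MX1 had 33.2 and 28.3 CPM at 4 h, against 13.1 and 10.5 CPM without TNF, a level still below that of any SIK3-named library. IFI6, the member most raised by SIK3 siRNA, had 16.3 and 13.9 CPM at 4 h, against 15.0 and 12.3 CPM without TNF in these libraries and did not pass.

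The responses were compared in an interaction, the TNF log2 fold change in SIK3-named minus that in Scr1-named libraries. At 30 min 0 members were called in it (edgeR), 3 had an unadjusted p under 0.05, and DESeq2 called 0. Of all genes 0.00% were called higher and 0.00% lower, with 317 of 16695 at an unadjusted p under 0.05. With the replicate block 1 member was lower (0.0779% of all genes higher, 0.186% lower). At 4 h 6 members were lower and 0 higher, while 0.719% of all genes were called higher and 0.845% lower. With the replicate block 19 were lower and 1 higher (6.44% of all genes higher, 5.52% lower). The members' median interaction was -0.59, against 0.03 for all genes.

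IFIH1 had the smallest p in the interaction at 4 h. In SIK3-named libraries it had 120 and 119 CPM at 4 h, against 94.5 and 91.3 CPM without TNF, and in Scr1-named libraries 228 and 210 CPM at 4 h, against 78.1 and 68.6 CPM without TNF. The interaction was -1.21 (SE 0.13, edgeR adjusted p = 0.00444). For MX1 it was -1.83 (SE 0.22, adjusted p = 0.00572), with 75.0 and 67.0 CPM at 4 h against 95.1 and 99.9 CPM without TNF in SIK3-named libraries. MX1 differed less between the siRNAs at 4 h than without TNF. For PARP14 it was -0.74 (SE 0.11, adjusted p = 0.0135), with 529 and 562 CPM at 4 h against 456 and 460 CPM without TNF in SIK3-named libraries. EPSTI1, SAMD9L and ISG20, an exonuclease, were called as well, at -1.90, -0.99 and -1.09.

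IFIH1 and MX1 kept the interaction call without each library in turn. The number of members called was then 2 or 3, and PARP14 lost its call without any 1 of 7 of the 8 libraries, all but Scr1-named replicate 2 without TNF (adjusted p = 0.0518 to 0.0803). The interaction uses the same libraries without TNF as the comparison of the siRNAs at that time, and those at 4 h as the comparison at 4 h, so it is no separate measurement from them.

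**Figure D4:**
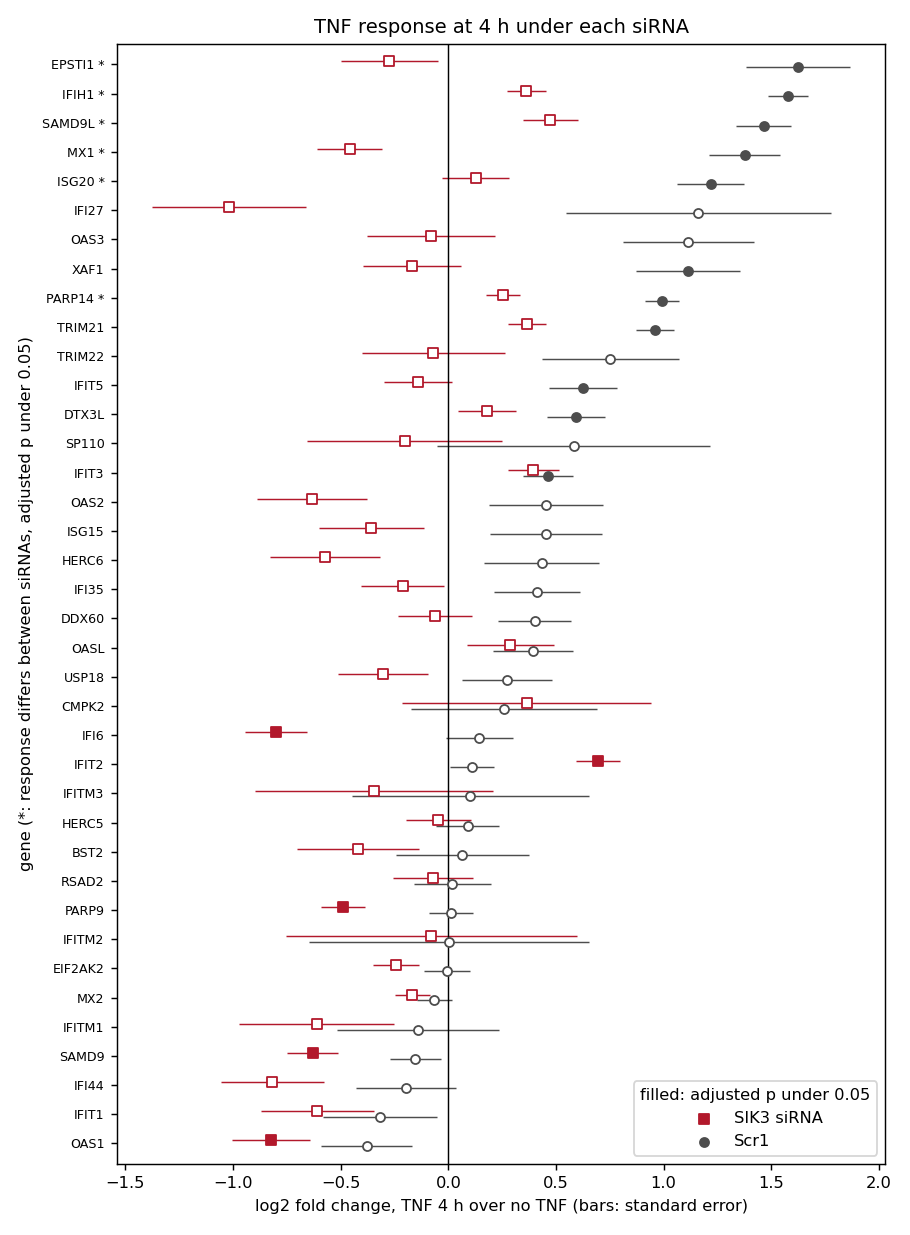
Log2 fold change, TNF 4 h over no TNF, of 38 members in SIK3-named (squares) and Scr1-named libraries (circles), with standard errors from the fit; filled symbols have an adjusted p under 0.05 and asterisks mark the 6 members called in the interaction. IFIH1 lies near 1.58 with Scr1 and left of 0.5 with SIK3 siRNA, and IFI6, SAMD9, PARP9 and OAS1 lie left of 0 with SIK3 siRNA.

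The genes that make and relay the interferon signal were read from a list of 35 that are no members, of which 29 passed the filter. Without TNF, 8 rose and 8 fell in SIK3-named libraries, 27.6% each, against 18.9% and 19.8% of all genes. The replicate block gave 9 higher and 12 lower (31.0% and 41.4%, against 29.2% and 29.1%). IL10RB, a receptor chain shared by type III interferon and interleukin 10, had 16.0 and 16.5 CPM in SIK3-named libraries, against 3.54 and 3.96 CPM in Scr1-named libraries (log2 fold change 2.12, SE 0.17, edgeR adjusted p = 1.12e-05). IRF1, a transcription factor, had 56.6 and 64.3 CPM in SIK3-named libraries, against 114 and 123 CPM in Scr1-named libraries (log2 fold change -0.97, SE 0.10, adjusted p = 4.47e-05). IKBKE, a kinase upstream of IRF3, had 2.34 and 1.90 CPM in SIK3-named libraries, against 8.41 and 7.07 CPM in Scr1-named libraries (log2 fold change -1.85, SE 0.18, adjusted p = 4.60e-05). None of the 3 overlapped between the siRNAs.

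STAT2 and IRF9, which act in 1 complex downstream of the interferon receptors, rose without TNF, with log2 fold changes of 0.54 for STAT2 and 2.17 for IRF9, whose level was at most 1.38 CPM in any library. The nucleic acid sensors MB21D1 (cGAS), DDX58 (RIG-I) and TLR3 and the adaptor TMEM173 (STING) fell. Their log2 fold changes were -1.27, -0.39, -1.05 and -0.96 in that order. Sensors did not fall as a class, since DHX58 did not pass (0.27) and the member IFIH1 rose. IRF3 and IRF7 rose (0.67 and 1.24). At TNF 30 min 8 of the list rose and 9 fell, 27.6% and 31.0%, against 18.2% and 19.6% of all genes. At 4 h 5 rose and 16 fell, 17.2% and 55.2%, against 19.6% and 19.9% of all genes. Averaged over times 9 rose and 14 fell, 31.0% and 48.3%, against 30.2% and 29.0% of all genes. Under the block 9 rose and 15 fell at 30 min, 31.0% and 51.7%, against 28.5% and 30.0% of all genes. At 4 h 5 rose and 20 fell under it, 17.2% and 69.0%, against 29.7% and 29.1%. Averaged over times 10 rose and 16 fell under it, 34.5% and 55.2%, against 36.9% and 35.7%. The shares of higher calls at 4 h and averaged over times lay near those of all genes without the block. With it, they lay near those of all genes at 30 min and averaged over times, and below at 4 h.

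The type III interferons IFNL1 and IFNL2 were lower in SIK3-named libraries at both TNF times. IFNL1 had 1.83 and 1.86 CPM in SIK3-named libraries at 30 min, against 7.13 and 7.50 CPM in Scr1-named libraries (log2 fold change -1.98, SE 0.28, edgeR adjusted p = 0.000412). IFNL1 had 3.58 and 3.36 CPM in SIK3-named libraries at 4 h, against 24.3 and 25.8 CPM in Scr1-named libraries (log2 fold change -2.85, SE 0.26, edgeR adjusted p = 3.92e-05). Without TNF it had 1.88 and 3.20 CPM in SIK3-named and 1.69 and 3.04 CPM in Scr1-named libraries, which overlapped. IFNL2 was lower at 30 min (-1.37, adjusted p = 0.0334) and at 4 h (-2.85), and IFNL3 at 4 h (-2.96), while IFNL3 at 30 min passed only with the replicate block. IFNE, a type I interferon of epithelia, was below the filter, with 46 counts in all. It had 11 and 1 counts in SIK3-named libraries without TNF, 6 and 3 at 30 min, and 8 and 11 at 4 h, against 1 count in each Scr1-named library. IFNB1, another type I interferon, was at most 0.102 CPM in any library, below the level that 3 counts stand for. IFNA1, IFNK and IFNG had 0 counts in every library, which allows up to 0.222 CPM.

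In SIK3-named libraries TNF for 4 h raised 8 of the 29 genes and lowered 0, 27.6% and 0%, against 3.65% and 0.767% of all genes. Under the block it raised 14 and lowered 2 (12.5% and 9.36% of all genes). In Scr1-named libraries it raised 18 and lowered 0, 62.1% and 0%, against 5.53% and 3.46% of all genes, and with the block it raised 21 and lowered 1 (11.3% and 12.2%). IRF1 had 258 and 287 CPM in SIK3-named libraries at 4 h, against 56.6 and 64.3 CPM without TNF (log2 fold change 2.17, SE 0.10, edgeR adjusted p = 2.60e-05). In Scr1-named libraries IRF1 had 792 and 805 CPM at 4 h, against 114 and 123 CPM without TNF (log2 fold change 2.76, SE 0.10, adjusted p = 9.26e-07). IRF1 was the 1 gene of the list called at 30 min without the replicate block, with a log2 fold change of 0.77 in SIK3-named and 1.28 in Scr1-named libraries. With the block SOCS3 was also higher and IFNAR2 and IFNGR2 lower in SIK3-named libraries, and IFNL1 (1.67, edgeR adjusted p = 2.58e-05) and SOCS3 were higher and IFNGR1 and IFNGR2 lower in Scr1-named libraries. At 4 h the feedback inhibitors SOCS1 and SOCS3 and the kinase TYK2 rose under both siRNAs. Their log2 fold changes were 2.22, 0.92 and 0.71 in SIK3-named libraries, and 3.01, 0.62 and 1.27 in Scr1-named libraries, in that order. None of the 3 passed in the interaction at 4 h without the block, and with it TYK2 was lower (-0.56) and SOCS3 higher (0.30). IFNL1 rose in Scr1-named libraries (3.43), and in SIK3-named libraries it had a log2 fold change of 0.49 that did not pass.

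In the interaction at 4 h, 3 genes of the list were lower and 0 higher (0.845% and 0.719% of all genes), and with the replicate block 10 were lower and 1 higher (5.52% and 6.44%). The 3 were IFNL1 (-2.94, SE 0.40, edgeR adjusted p = 0.00864), IFNL3 (-3.42, SE 0.64, adjusted p = 0.0328) and DHX58 (-1.41, SE 0.27, adjusted p = 0.0336), which encodes the RNA sensor LGP2. At 30 min IFNL1 and IRF1 were lower in the interaction, at -2.07 and -0.51, only with the block. IFNL2 and IFNL3 are near-identical copies, so their separate levels are uncertain. DHX58 had 9.82 and 11.1 CPM at 4 h against 10.3 and 9.59 CPM without TNF in SIK3-named libraries, and 25.8 and 20.6 CPM at 4 h against 7.19 and 9.40 CPM without TNF in Scr1-named libraries.

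**Figure D5:**
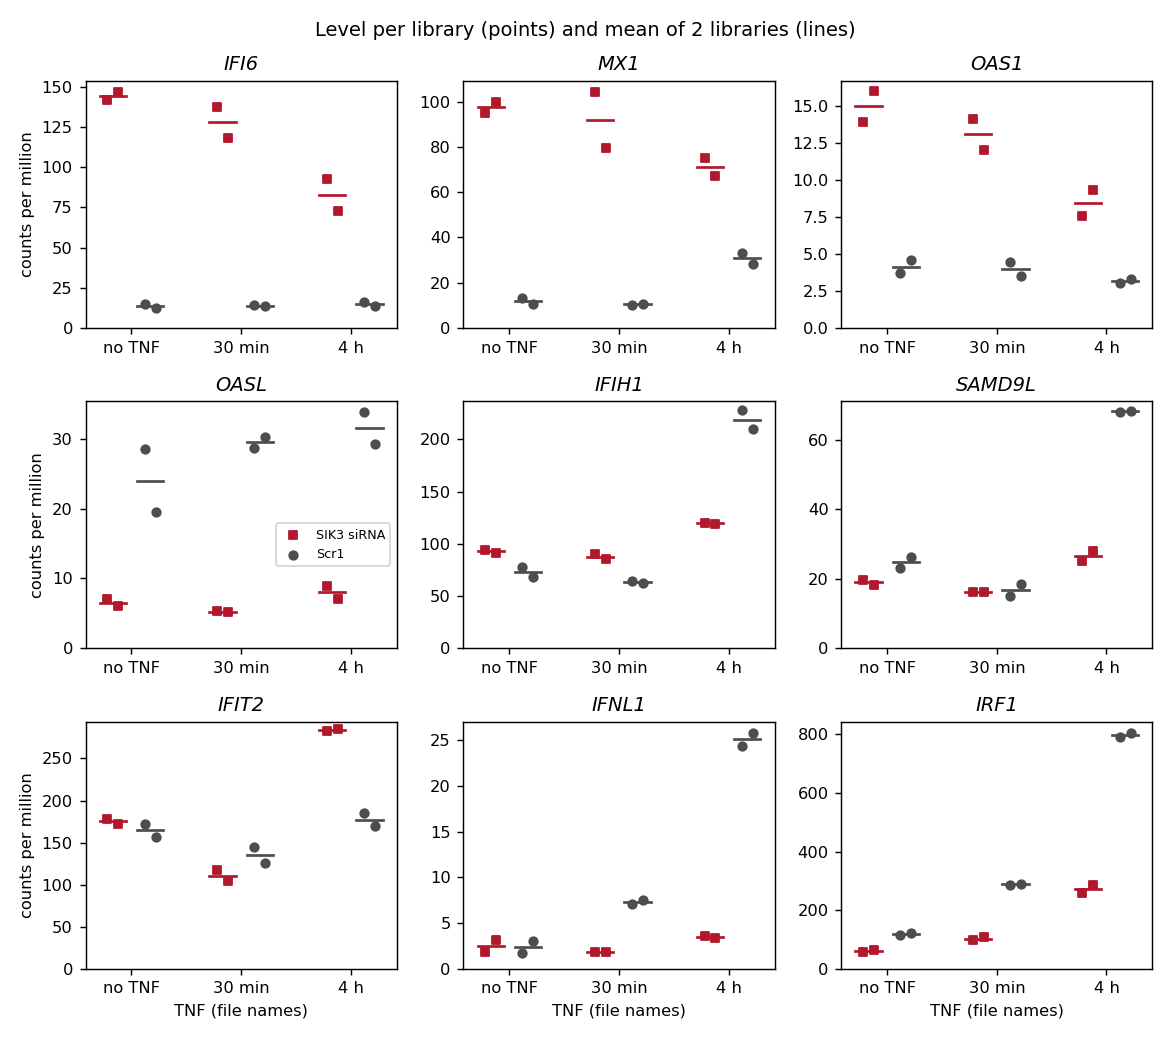
Level in CPM of 7 members and of IFNL1 and IRF1 in each library (points; line, mean of 2 libraries), SIK3-named left of Scr1-named at each TNF time. IFI6, MX1 and OAS1 are higher in every SIK3-named library, OASL and IRF1 are lower than in the Scr1-named libraries of the same time, and IFIH1, SAMD9L and IFNL1 are highest in the Scr1-named libraries at 4 h.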

How the data were processed

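The authors deposited a table of raw read counts by gene for each library. STAR 2.05b, edgeR and the build GRCh38 appear in the submitters' processing notes. The strand setting and annotation release are not given in the sources used here. Libraries were prepared from total RNA with the ScriptSeq kit, per the labels. Identifiers were matched to symbols through GENCODE 29 and a symbol list, which left 3742 unmatched. The members and gene lists were chosen with earlier results of these data known.

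Conditions were taken from the file names. The filterByExpr step with a minimum of 10 counts kept 16695 genes, with TMM scaling. One edgeR 4.0.16 quasi-likelihood fit of the 12 libraries (R 4.3.3, 6 residual degrees of freedom) gave 8 pairwise comparisons and 2 interactions, adjusted over all genes tested by Benjamini-Hochberg. The fit was run on simulated counts with 200 seeded genes and no replicate effect, for the siRNA comparison without TNF only. That run cannot show how the fit behaves when replicates are paired. Named by rule were SIK3 and up to 4 called members with the smallest p per comparison (3 per interaction). The rule also named up to 3 called genes of the interferon signal list per comparison. Other members, by role, and other genes of that list were added after their values were seen. Replicate 1 deviations correlated between all 15 pairs of conditions (0.35 to 0.53), so replicate numbers were taken to pair the samples. The main fit nevertheless held no replicate term. Its standard errors and p-values ignore the pairing, and the fit with the replicate block is given beside it. Alternatives were the replicate block, DESeq2 1.42.0 (Wald test and size factors), library totals, the filter dropped or raised to 1 CPM in at least 4 libraries, an adjusted p under 0.01, conditions from the titles, and each library left out in turn. Figures and the permutation test were made in Python 3.11.15.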

Additional observations from a re-analysis of the deposited data

Results flagged for a closer look

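The TNF response at 4 h differed between the siRNAs, by the interaction term, for 6 members. The interaction (SIK3-named minus Scr1-named, log2) was -1.21 for IFIH1, -1.83 for MX1, -0.74 for PARP14, -1.90 for EPSTI1, -0.99 for SAMD9L and -1.09 for ISG20. Among genes of the interferon signal it was -2.94 for IFNL1, -3.42 for IFNL3 and -1.41 for DHX58. Of all genes tested, 0.719% were called higher and 0.845% lower in this comparison.

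Reads in no annotated gene, which no comparison used, made up 16.5% in SIK3-named replicate 1 at 4 h and 17.1% in replicate 2, above the highest share in the other 10 libraries, 10.5%. Their part in the interaction was not tested.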

How the results depend on the processing

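The siRNA comparisons at each time kept their counts of calls within 1.5 times under DESeq2, both scalings, both filters, the stricter threshold and the replicate block. Library totals moved the median of all genes by up to 0.13 (log2). The replicate block moved the counts at TNF 30 min to 3 (SIK3-named) and 4 (Scr1-named), at TNF 4 h to 21 and 18 (same order), and in the interactions to 1 at 30 min and 20 at 4 h, and it changed no call of the 27 pairs of named member and comparison. The DESeq2 Wald test called 1 member at TNF 30 min under each siRNA. No filter gave 1 call at TNF 30 min in SIK3-named libraries and 11 in the interaction at 4 h, and the stricter filter gave 1 call at TNF 30 min in SIK3-named libraries. An adjusted p under 0.01 left 1 call at TNF 4 h in SIK3-named libraries, 7 in Scr1-named libraries and 2 in the interaction. Apart from the replicate block, the shares of all genes called under these settings are not given here. Their counts are therefore not read as a result about the members.

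With a library left out, the counts ran from 15 to 20 for the siRNAs at 4 h, 0 to 2 for TNF 4 h in SIK3-named libraries, 7 to 9 in Scr1-named libraries, and 2 to 3 for the interaction at 4 h. Fewer samples are then fitted, and the shares of all genes called in these fits are not given here. The lone library of a condition is assumed to vary like the others.

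Conditions from the titles exchange libraries between groups. The counts for siAS1 against siCtrl1 were then 0 without TNF (edgeR; 6 at an unadjusted p under 0.05 for the same libraries), 26 at 30 min, 9 at 4 h and 13 averaged. For TNF they were 28 at 30 min and 24 at 4 h with siAS1, 11 and 24 with siCtrl1, and 20 in the interaction at 30 min and 7 at 4 h. Shares of all genes called under the titles are not given here, so these counts are not read as a result about the members. SIK3 then differed by -0.34. Directions that reversed under the titles were, as log2 values, for siAS1 without TNF MX1 (-0.19), OAS1 (-0.059) and OASL (0.29), at 4 h IFI6 (-0.63), SAMD9L (0.71), OASL (0.61) and IFIH1 (0.45), for TNF 4 h with siAS1 IFI6 (2.59) and PARP9 (0.12), with siCtrl1 SAMD9L (-0.61) and TRIM21 (-0.42), and in the interaction IFIH1 (0.65) and PARP14 (0.46). No other alternative reversed a named member.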
